A study of Mus musculus with 4 samples.

Results

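The genes described here are 7 markers of the thalamus and the habenula, the regions that lie beneath the hippocampus and can be carried along when it is dissected. They are Tcf7l2, Lef1, Slc17a6, Prkcd, Rora, Ntng1 and Calb2. They were taken by gene symbol, from a choice made with earlier results of these data known, and fill 8 of the 22328 rows of each deposited table, because Ntng1 is listed under 2 identifiers. The study compared 4 mouse samples, each a separate group with 1 library. F1m-GCS hippocampus came from offspring of dams whose diet held 5 g/kg choline chloride, given from embryonic day 9 up to birth. F1m-CON hippocampus came from offspring of dams whose diet held 1.1 g/kg choline chloride. After birth both groups ate a basal diet, and their behaviour was tested at 2 months of age. The labels give neither the strain nor whether a library is 1 animal or a pool. HT22, an immortalised line of mouse hippocampal neurons, was cultured for 48 h with 70 µM choline chloride (SUP) or 5 µM (CON).

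The thalamus relays sensory and motor signals to the cortex, and the habenula links the limbic forebrain to midbrain monoamine neurons. Both send out glutamate through the vesicular transporter Slc17a6, whereas hippocampal pyramidal and granule cells mainly use its relative Slc17a7. None of the 7 genes is exclusive to these regions. Slc17a6 is also found in the subicular region and in Cajal-Retzius cells, Calb2 in hippocampal interneurons and mossy cells, Rora in interneurons and astrocytes, Tcf7l2 in glia and Lef1 in endothelial cells.

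In mm10, as the deposited tables give it, Tcf7l2 lies on the plus strand of chromosome 19 from 55741810 to 55933654 and Lef1 on the plus strand of chromosome 3 from 131110471 to 131224356. Slc17a6 lies on the plus strand of chromosome 7 from 51621830 to 51671125, and Prkcd on the minus strand of chromosome 14 from 30595356 to 30626210. Rora occupies 68653786 to 69388246 on the plus strand of chromosome 9, and Calb2 occupies 110142539 to 110168206 on the minus strand of chromosome 8. The main Ntng1 row (ENSMUSG00000059857) covers 109780040 to 110143228 on the minus strand of chromosome 3. Its other row (ENSMUSG00000050836) covers 110143685 to 110144011, has a coding length of 327 bases and held 10 reads in F1m-GCS and 10 in F1m-CON. In GENCODE M21 that stretch is inside Ntng1, which there ends at 110144011. This row did not reach the minimum of 50 reads, so Ntng1 stands below for the main row. In GENCODE M21 the antisense gene Gm43352 shares 1208 of the 8788 exon bases of Lef1, and the antisense gene Gm15511 shares 82 of the 13071 exon bases of Rora. Counting by strand is not stated, so reads of these pairs cannot be told apart.

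Upstream sequence of 4 of the genes is shown because 3 of the 7 encode DNA-binding proteins: Tcf7l2 and Lef1, which bind the TCF/LEF motif CTTTGA, and Rora, which binds AGGTCA. The windows are the 250 bases before a RefSeq transcript start (GRCm38.p6), and 6 of the 7 genes had 12 such windows in the table. The TCF/LEF motif, searched on both strands, was in 2 of the 12 windows, against 13.8% of 32851 windows of this length. AGGTCA was in 0 of the 12, against 14.0% of all windows. Capitals mark the TCF/LEF motif, which reads TCAAAG here since each match was on the other strand. The windows belong to an internal start of Lef1 (chr3:131156044-131156293, plus strand), to Prkcd (chr14:30626209-30626458, minus strand), and, with no match, to the genes with the highest ratios below, Rora (chr9:68653536-68653785, plus strand) and Slc17a6 (chr7:51621580-51621829, plus strand).
Lef1: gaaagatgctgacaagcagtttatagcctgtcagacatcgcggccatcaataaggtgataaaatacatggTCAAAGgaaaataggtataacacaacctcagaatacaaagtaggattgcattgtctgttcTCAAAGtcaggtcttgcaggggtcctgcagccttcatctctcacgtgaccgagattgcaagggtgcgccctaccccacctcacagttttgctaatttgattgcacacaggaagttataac
Prkcd: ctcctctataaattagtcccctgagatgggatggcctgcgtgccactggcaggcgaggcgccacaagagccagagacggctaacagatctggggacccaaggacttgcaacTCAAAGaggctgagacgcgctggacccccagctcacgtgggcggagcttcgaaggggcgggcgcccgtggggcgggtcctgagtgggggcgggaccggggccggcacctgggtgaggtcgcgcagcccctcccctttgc
Rora: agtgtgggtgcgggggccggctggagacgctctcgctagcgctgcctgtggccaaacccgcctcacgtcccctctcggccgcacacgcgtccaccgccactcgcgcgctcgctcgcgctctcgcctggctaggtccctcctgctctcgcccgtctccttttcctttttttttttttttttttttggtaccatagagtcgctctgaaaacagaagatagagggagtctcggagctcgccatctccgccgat
Slc17a6: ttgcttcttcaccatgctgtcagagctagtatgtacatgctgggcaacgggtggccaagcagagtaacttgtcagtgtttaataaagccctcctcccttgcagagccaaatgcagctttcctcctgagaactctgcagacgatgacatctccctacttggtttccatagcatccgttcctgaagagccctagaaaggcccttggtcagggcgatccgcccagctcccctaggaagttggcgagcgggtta

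Reads counted in genes numbered 30265820 in F1m-GCS, 31175015 in F1m-CON, 13192007 in HT22 SUP and 18305096 in HT22 CON. Of the uniquely mapped reads these were 79.0% in F1m-GCS, 79.4% in F1m-CON, 63.1% in HT22 SUP and 72.9% in HT22 CON. No difference has a replicate check, and bracketed values are 95% counting intervals. In the hippocampus pair, longer genes had higher log2 ratios, with medians from -0.09 in the shortest to 0.11 in the longest of 10 groups by coding length. The rank correlation of the ratio with GC content was -0.26 across 13226 genes, which are not independent replicates. In the HT22 pair the medians were -0.0023 in the shortest and 0.29 in the longest group. The rank correlation with GC content there was 0.17 across 10719 genes. Choroid plexus markers, genes of the epithelium that secretes the fluid of the brain ventricles, were lower in F1m-GCS, with a median log2 ratio of -0.45 and intervals below 0 for 14 of 15. Their summed level was 2905 RPKM in F1m-GCS and 3367 RPKM in F1m-CON. The part of tissue sampling in the ratios below was not tested.

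All 7 markers were detected in both hippocampus libraries, at levels that spanned more than 1 order of magnitude. RPKM scales reads to coding length and to the uniquely mapped reads of the library, so levels of different genes are compared per coding base only. Exon bases outside the coding sequence are not in that length. Rora has 1572 coding bases and 13071 exon bases, and Lef1 has 1194 coding bases and 8788 exon bases. Orders of genes below are subject to this limit as well as to counting error. Calb2, which encodes the calcium-binding protein calretinin, was the highest, with 52.0 RPKM in F1m-GCS and 47.1 in F1m-CON. Ntng1, the membrane-anchored netrin-G1 of thalamocortical axons, had 24.4 RPKM in F1m-GCS and 21.5 in F1m-CON. Rora, a nuclear receptor transcription factor, followed with 19.6 RPKM in F1m-GCS and 14.8 in F1m-CON. Prkcd, the delta isoform of protein kinase C and a marker of sensory relay nuclei, had 15.5 RPKM in F1m-GCS and 13.5 in F1m-CON. The counting intervals of Rora and Prkcd did not overlap in F1m-GCS (18.5 to 20.7 and 14.6 to 16.4) but did in F1m-CON (13.8 to 15.8 and 12.7 to 14.3), so their order was not resolved there. Slc17a6 had 12.3 RPKM in F1m-GCS and 9.48 in F1m-CON. The lowest were the transcription factors of the Wnt pathway, Lef1 with 3.13 RPKM in F1m-GCS and 3.97 in F1m-CON, and Tcf7l2 with 2.77 in F1m-GCS and 2.73 in F1m-CON. Their intervals overlapped in F1m-GCS and were apart in F1m-CON, at 3.42 to 4.58 for Lef1 and 2.36 to 3.14 for Tcf7l2. Tcf7l2, the broadest marker of thalamic and medial habenular neurons on this list, stood at percentile 47.3 of all listed genes in F1m-GCS and 47.2 in F1m-CON.

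**Figure D1:**
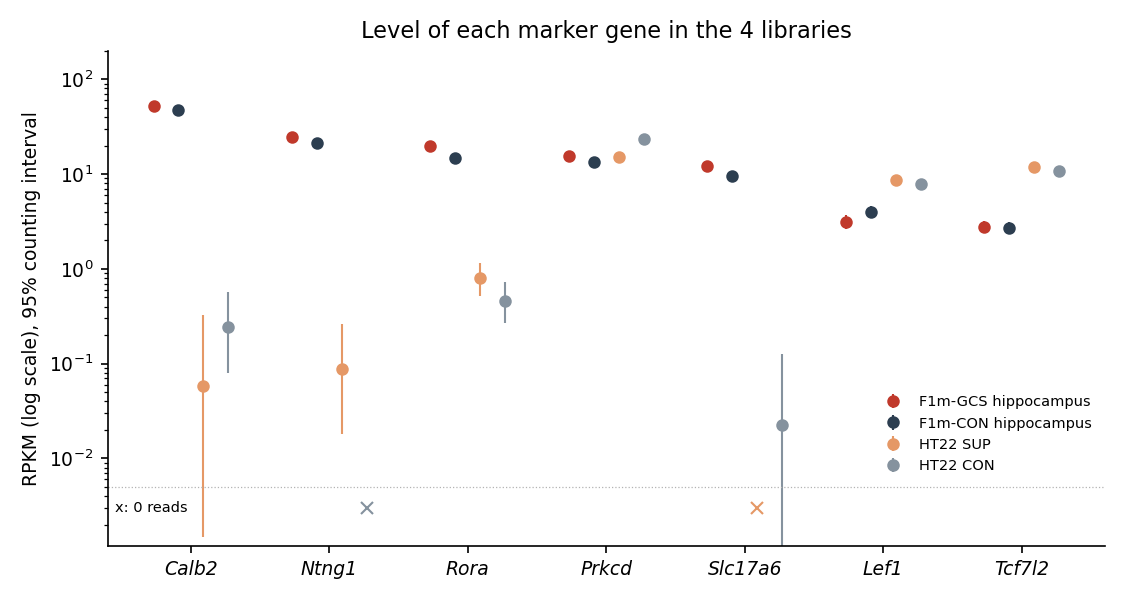
RPKM on a log axis (vertical) of each of the 7 marker genes (horizontal) in the 4 libraries, with 95% counting intervals as bars and crosses for 0 reads. In hippocampus the levels run down from Calb2, at 52.0 and 47.1, to Tcf7l2, at 2.77 and 2.73, while in HT22 cells only Prkcd, Lef1 and Tcf7l2 are above 1 RPKM.

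Compared with F1m-CON, 5 of the 7 genes had more reads in F1m-GCS beyond counting error, by less than 1.5-fold in every case. Rora had 1179 reads in F1m-GCS and 912 in F1m-CON, a log2 ratio of 0.42 (0.30 to 0.55). Slc17a6 had 821 reads in F1m-GCS and 651 in F1m-CON, a log2 ratio of 0.39 (0.24 to 0.54). These were the highest ratios of the 7, at percentiles 96.0 and 95.1 of the 13392 measured genes. Prkcd had 1247 reads in F1m-GCS and 1116 in F1m-CON, a log2 ratio of 0.21 (0.10 to 0.33). Ntng1 had 1512 reads in F1m-GCS and 1365 in F1m-CON, a log2 ratio of 0.20 (0.10 to 0.31). Calb2 had 1625 reads in F1m-GCS and 1509 in F1m-CON, a log2 ratio of 0.16 (0.06 to 0.26). The intervals of these 3 overlapped one another, so no order among them was resolved. Tcf7l2 and Lef1, both nuclear partners of beta-catenin, were not higher beyond counting error. Tcf7l2 had 193 reads in F1m-GCS and 195 in F1m-CON, a log2 ratio of 0.04 (-0.26 to 0.33). Lef1 had 143 reads in F1m-GCS and 186 in F1m-CON, a log2 ratio of -0.32 (-0.65 to -0.0028). Tcf7l2 therefore differed by less than its counting error, and the interval of Lef1 only just lay below 0. At these depths a difference in Tcf7l2 as large as that of Prkcd would not have been detectable.

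Across the 7 genes the median log2 ratio was 0.20, against -0.0042 over all measured genes, and 6 of 7 were above 0, against 48.8% of all. By the interval rule 5 of 7 were higher and 1 was lower, where 20.9% of all measured genes were higher and 18.8% lower. Among genes with 500 to 2000 reads in both libraries, a range chosen after the data were seen that holds 5 of the 7, the shares were 19% higher and 17.2% lower. None of the 7 reached 1.5-fold in either direction, a size that 1.8% of measured genes reached upward and 0.904% downward. Added over the 8 rows, the markers took 222 CPM in F1m-GCS and 191 CPM in F1m-CON (reads scaled to the reads in genes), a log2 ratio of 0.23 (0.18 to 0.28). The authors' deposited table lists 5 of the 8 rows with a p-value and false discovery rate below 0.05, against 14.2% of all its rows, and these are the 5 genes with intervals above 0. For Rora it has a log2 fold change of 0.42 and a false discovery rate of 1.08e-08, and for Lef1 -0.32 and 0.211. Those rates rest on no replicate libraries, and the share of all rows includes those under 50 reads.

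The ratios of the members also differed in how far they moved once coding length and GC content were allowed for. Slc17a6 and Rora, with the lowest GC content of the 7 at 42.9% and 40.9%, had 0.23 (0.08 to 0.38) and 0.31 (0.18 to 0.44) after that correction. Calb2, with the highest at 53.5%, had 0.22 (0.12 to 0.33), and Prkcd, at 52.2%, had 0.23 (0.11 to 0.35). The intervals of the 5 genes with more reads in F1m-GCS then all overlapped and all stayed above 0. Lef1 had -0.25 (-0.58 to 0.06), so that its interval no longer lay below 0.

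**Figure D2:**
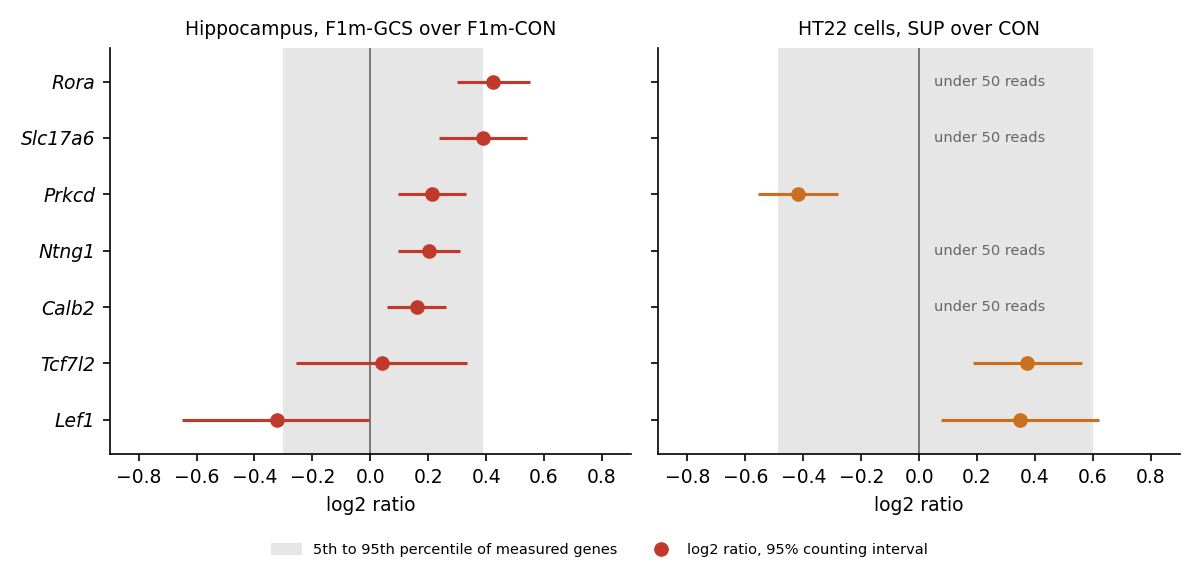
Log2 ratio (horizontal) of each marker gene (rows) in hippocampus, F1m-GCS over F1m-CON, on the left and in HT22 cells, SUP over CON, on the right, with 95% counting intervals and the range from the 5th to the 95th percentile of measured genes in grey. In hippocampus 5 intervals lie above 0 and that of Lef1 just below it, and in HT22 cells Tcf7l2 and Lef1 lie above 0 and Prkcd below it.

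Most other listed genes of thalamic neurons had ratios above 0, few of them beyond counting error, and their median was smaller than that of the 7 markers. Of 23 listed genes that were found, 19 were measured, with a median log2 ratio of 0.09. Of these, 17 were above 0, against 48.8% of all measured genes. Over all measured genes 20.9% were higher by the interval rule and 18.8% lower. Of the 19 thalamus genes 5 were higher and 0 were lower, and the intervals of the others spanned 0. The 5 were Rgs16, a regulator of G-protein signalling, at 0.27 (0.03 to 0.51), the calcium-binding protein gene Necab1 at 0.17 (0.08 to 0.26), the phosphatase gene Pdp1 at 0.16, the potassium channel gene Kcnc2 at 0.14 and the RNA-editing enzyme gene Adarb1 at 0.07. Adarb1 had 84.2 RPKM in F1m-GCS and 81.2 in F1m-CON. In each library this was above the level of Calb2, the highest of the 7 markers.

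Of the other listed thalamus genes found, 4 were under the minimum of 50 reads. Gbx2, a homeobox gene of the developing thalamus, had 7 reads in F1m-GCS and 1 in F1m-CON. Shox2, another homeobox gene of thalamic neurons, had 10 reads in F1m-GCS and 8 in F1m-CON. Slitrk6, a synaptic adhesion gene, had 34 reads in F1m-GCS and 9 in F1m-CON, and Foxp2, a forkhead gene, had 43 in F1m-GCS and 27 in F1m-CON. These 4 are all the listed thalamus genes under 50 reads, and each had more reads in F1m-GCS. They are grouped by their low counts, not by how specific they are to the thalamus. The share of all genes under 50 reads with more in F1m-GCS is not given here. Taken singly, Slitrk6 had an interval above 0 (0.88 to 3.22), and those of Gbx2, Shox2 and Foxp2 spanned 0. Together the 4 genes had 94 reads in F1m-GCS and 45 in F1m-CON, a log2 ratio of 1.08 (0.59 to 1.66). Slitrk6 gave much of that: without it, a split chosen after the data were seen, the sums were 60 reads in F1m-GCS and 36 in F1m-CON, a log2 ratio of 0.76 (0.17 to 1.43). Tnnt1, a troponin gene expressed in thalamus, had 50 reads in F1m-GCS and 45 in F1m-CON, and Grid2ip had 50 in F1m-GCS and 61 in F1m-CON, and both differed by less than counting error. The first 4 had at most 0.506 RPKM in either library, and Tnnt1 had 1.66 RPKM in F1m-GCS and 1.45 in F1m-CON.

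Habenula genes did not share a direction. Of 16 found, 7 were measured, with 4 above and 3 below 0 and a median of 0.00066. Gpr151, an orphan receptor gene of habenular neurons, was lower, with 27 reads in F1m-GCS and 64 in F1m-CON and a log2 ratio of -1.13 (-1.90 to -0.52). Tac2, which encodes neurokinin B, had 106 reads in F1m-GCS and 134 in F1m-CON, with an interval across 0. Syt15 was higher, with 58 reads in F1m-GCS and 37 in F1m-CON and a log2 ratio of 0.67 (0.08 to 1.34). Spon1 was higher at 0.12 (0.05 to 0.18), and its level was 42.0 RPKM in F1m-GCS and 39.3 in F1m-CON. The genes that define the cholinergic medial habenula had few reads in either library. Pou4f1, its homeobox gene, had 1 read in F1m-GCS and 4 in F1m-CON. Chrnb4, a nicotinic receptor subunit gene, had 5 in F1m-GCS and 8 in F1m-CON. Chat, the acetylcholine-synthesising enzyme gene, had 1 in F1m-GCS and 0 in F1m-CON. Chrna3, another nicotinic subunit gene, had 25 reads in F1m-GCS and 9 in F1m-CON, with an interval above 0 (0.38 to 2.81). The intervals of Pou4f1 and Chrnb4 spanned 0. Over the 9 listed habenula genes under 50 reads, the sums were 139 reads in F1m-GCS and 117 in F1m-CON, with a log2 ratio of 0.30 (-0.06 to 0.67). Markers of the thalamic reticular nucleus and zona incerta, most of them also interneuron genes, had a median of -0.11 over 9 genes. Among these Pvalb was at -0.27 and Dlx5 at 0.62.

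Cell types inside the hippocampus carry some of the same markers, and their other genes went both ways. The list of subiculum, mossy cell and Cajal-Retzius genes had 7 intervals above 0 and 3 below among 12 measured genes, with a median of 0.19. Slc17a6 and Calb2 themselves are on this list, are counted among the 7 and enter the median. Over all measured genes 20.9% had an interval above 0 and 18.8% below. Gpr101, an orphan receptor gene, had 584 reads in F1m-GCS and 456 in F1m-CON and a log2 ratio of 0.41 (0.23 to 0.59). Drd2, a dopamine receptor gene of mossy cells, had 66 reads in F1m-GCS and 43 in F1m-CON and a log2 ratio of 0.65 (0.10 to 1.26). Trp73, a gene of Cajal-Retzius cells chosen after its values were seen, had 202 reads in F1m-GCS and 257 in F1m-CON and a log2 ratio of -0.29 (-0.57 to -0.02). CA1 and CA3 markers had a median of 0.04 and dentate gyrus markers -0.05, with 0 of 10 dentate intervals above 0 and 3 below. Interneuron markers had a median of -0.02, endothelial markers 0.07, astrocyte markers -0.09 and oligodendrocyte lineage markers -0.06. Markers of the neocortex had a median of -0.04, and those of the striatum and septum -0.04. Of 14 hypothalamus and midbrain genes 1 was measured, Pomc, at -0.11, and their summed level was 6.26 RPKM in F1m-GCS and 7.18 in F1m-CON. In bulk tissue more cells of a type and more RNA per cell cannot be told apart, for the markers as for these lists.

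**Figure D3:**
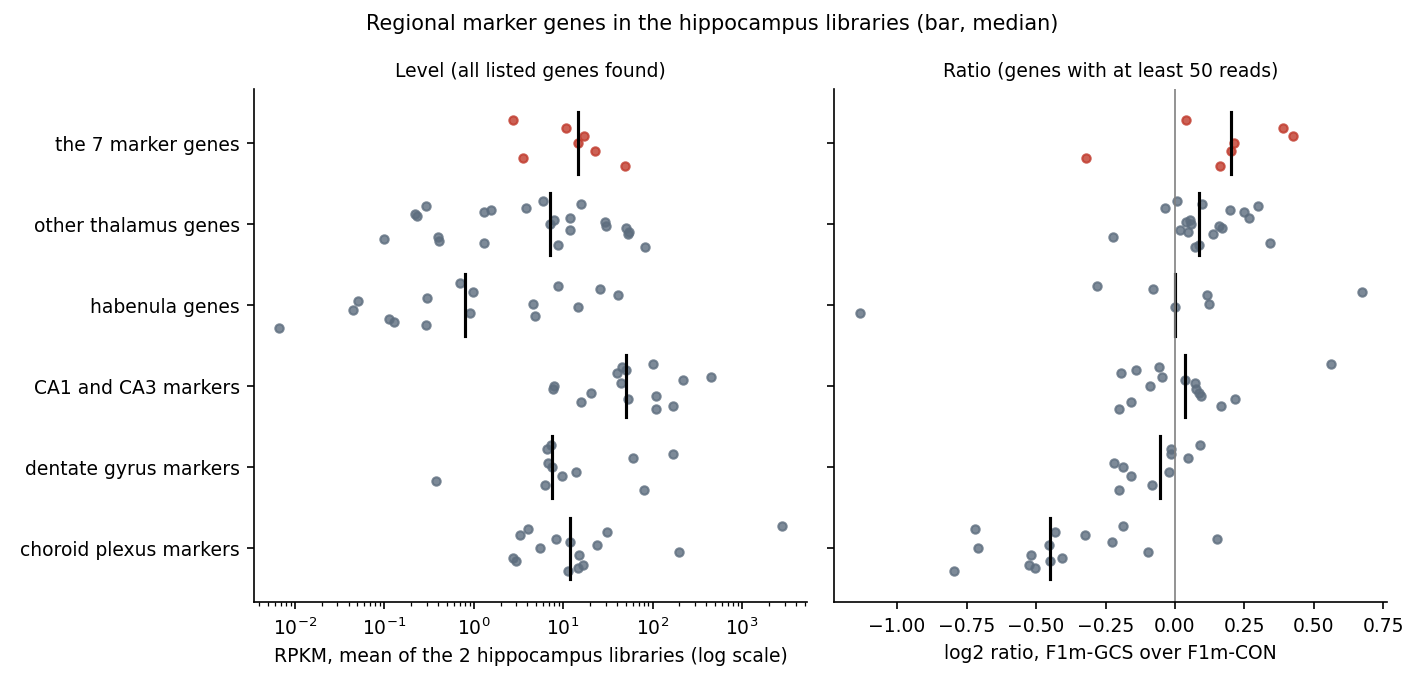
Level in RPKM as the mean of the 2 hippocampus libraries (left, log axis) and log2 ratio of F1m-GCS over F1m-CON (right) for single genes (points) of 6 marker lists, with the median of each list as a bar. Medians of the ratio are 0.20 for the 7 markers, 0.09 for other thalamus genes and -0.45 for choroid plexus genes, and many habenula genes lie below 1 RPKM.

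Close relatives of the markers set their levels in context. Slc17a7, the transporter of hippocampal principal cells, had 600 RPKM in F1m-GCS and 616 in F1m-CON, far above Slc17a6, and its log2 ratio was -0.02 (-0.04 to 0.0018). The interval of Slc17a6, before the coding length and GC correction, did not overlap this one. Slc17a8, another vesicular glutamate transporter, had 3.34 RPKM in F1m-GCS and 3.02 in F1m-CON. Among protein kinase C genes, Prkcd was below Prkce, with 308 RPKM in F1m-GCS and 316 in F1m-CON, and below Prkca and Prkcb. Prkca had a log2 ratio of 0.12 and Prkcb 0.11, while Prkcq had -0.21 (-0.36 to -0.05). Rorb, a relative of Rora in sensory cortex and thalamus, had 9.20 RPKM in F1m-GCS and 9.59 in F1m-CON, a log2 ratio of -0.04 (-0.22 to 0.14). Before that correction its interval did not overlap that of Rora. Corrected ratios of the relatives are not given here. Ntng2, which binds Lrrc4 as Ntng1 binds Lrrc4c, had 21.2 RPKM in F1m-GCS and 18.8 in F1m-CON and a log2 ratio of 0.19 (0.08 to 0.30), close to that of Ntng1. The partner genes Lrrc4c, at 0.04, and Lrrc4, at -0.03, had intervals across 0. Calb1, the calbindin gene of granule cells, had 151 RPKM in F1m-GCS and 152 in F1m-CON, with a log2 ratio of 0.0020. Tcf7, at 3.15 RPKM in F1m-GCS and 3.24 in F1m-CON, and Tcf7l1, at 2.00 in F1m-GCS and 1.71 in F1m-CON, were as low as Tcf7l2 and Lef1, and both intervals spanned 0.

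In the Wnt pathway, in which beta-catenin enters the nucleus and acts through Tcf7l2, Lef1 and their relatives, 30 of 34 other listed genes were measured. By the interval rule 6 were higher and 5 lower, where 20.9% of all measured genes were higher and 18.8% lower. The median of the list was -0.02. Apc, a scaffold of the complex that degrades beta-catenin, had the ratio farthest from 0, with 10923 reads in F1m-GCS and 8269 in F1m-CON and a log2 ratio of 0.46 (0.41 to 0.50). Fzd1, a Wnt receptor gene, had 0.27 (0.07 to 0.47), and Wnt3, a ligand gene, had -0.31 (-0.72 to 0.09).

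In HT22 cells 3 of the 7 genes were well expressed and 4 were below 1 RPKM. Slc17a7, which marks hippocampal principal cells, was itself low there, with 5.20 RPKM in SUP and 2.46 in CON. Tcf7l2 had 11.9 RPKM in SUP and 10.7 in CON, and Lef1 had 8.62 in SUP and 7.87 in CON. Prkcd had 15.1 RPKM in SUP and 23.5 in CON. Per read in genes, Tcf7l2 stood at 543% of its mean hippocampus level in SUP and 422% in CON, and Lef1 at 304% in SUP and 241% in CON. Prkcd was at 131% in SUP and 176% in CON. Rora had 26 reads in SUP and 18 in CON, which are 5.79% of its hippocampus level in SUP and 2.89% in CON. Calb2 had 1 read in SUP and 5 in CON, Ntng1 had 3 in SUP and 0 in CON, and Slc17a6 had 0 in SUP and 1 in CON. A count of 0 allows up to 3 reads, or 0.0821 RPKM for Slc17a6 in SUP and 0.0737 RPKM for Ntng1 in CON.

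As shares of their hippocampus level, Calb2 stood at 0.149% in SUP and 0.535% in CON, Ntng1 at 0.486% in SUP and 0 in CON, and Slc17a6 at 0 in SUP and 0.228% in CON. These shares rest on 1 to 5 reads where any were seen. For comparison, 665 genes with at least 50 CPM in hippocampus and a level 100 times higher there than in HT22 cells were pooled. The pool stood at 0.829% of its hippocampus level in SUP and 0.345% in CON. Its genes were picked for low HT22 levels, and 1 of the markers is among them. Whether the shares of Calb2, Ntng1 and Slc17a6 differ from this background was not tested.

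**Figure D4:**
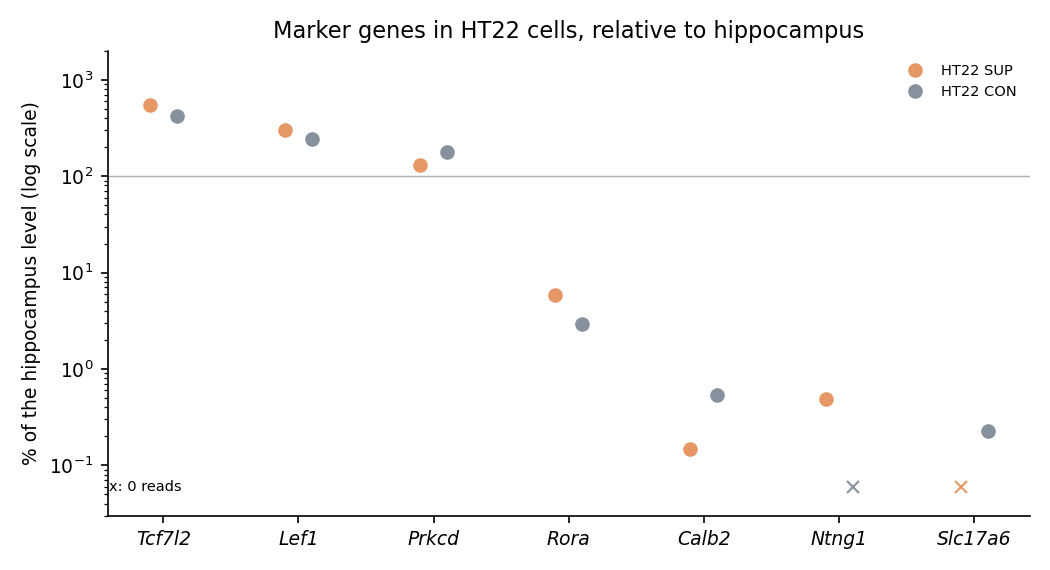
Level of each marker gene in HT22 SUP and HT22 CON as a percent of its mean level in the hippocampus libraries, on a log axis, with crosses for 0 reads and a grey line at 100%. Tcf7l2, Lef1 and Prkcd lie above that line, from 131% to 543%, and the highest value of Calb2, Ntng1 and Slc17a6 is 0.535%.

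Between the HT22 cultures the well-expressed markers differed in opposite directions, with Tcf7l2 and Lef1 higher and Prkcd lower in SUP. Tcf7l2 had 452 reads in SUP and 488 in CON, which after scaling by library size is a log2 ratio of 0.37 (0.19 to 0.56). Lef1 had 215 reads in SUP and 236 in CON, a log2 ratio of 0.35 (0.08 to 0.62). Prkcd had 663 reads in SUP and 1240 in CON, a log2 ratio of -0.42 (-0.56 to -0.28). After the correction for coding length and GC content the ratios were 0.49 for Tcf7l2, 0.45 for Lef1 and -0.42 for Prkcd. By the interval rule 2 of 3 measured markers were thus higher and 1 was lower, where 22.4% of 10854 measured genes were higher and 32.7% lower. At 1.5-fold 0 of 3 were called, against 5.13% of genes upward and 2.89% downward. Scaled by uniquely mapped reads, as the RPKM values are, the median of all genes shifted by -0.22, Tcf7l2 had 0.15 and Lef1 0.13 with intervals across 0, and Prkcd had -0.64. In the authors' deposited table the log2 fold changes are 0.16 for Tcf7l2, 0.15 for Lef1 and -0.27 for Prkcd. These fold changes are nearer to 0 than the ratios after TMM scaling. Prkcd is the 1 row of 8 with a false discovery rate below 0.05, against 9.55% of all rows, those under 50 reads included. Of the other thalamus genes, 3 of 9 measured were higher and 3 lower in HT22 SUP.

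The genes nearest to each marker in pattern over the 4 libraries, by the root mean square difference of centred log2 values, came from 12865 candidates. They were Nol12 for Tcf7l2, at a difference of 0.0294, Rbm8a for Lef1 at 0.0388 and Ptcd3 for Prkcd at 0.0095. Prkg1 was nearest to Rora at 0.0286, Gnaz to Ntng1 at 0.0206, Mgat5b to Calb2 at 0.0760 and Slitrk2 to Slc17a6 at 0.0815. The first 3 are genes with reads in hippocampus and HT22 cells alike, and the other 4 are genes with at most 11 reads in either HT22 library. With 4 libraries in 4 groups such likeness is a description only.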

How the data were processed

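Each of the 4 libraries was made from poly(A) RNA and read from both ends, per the labels' protocols. Trimming used Trim Galore, alignment to mm10 TopHat2 and counting HTSeq, per the series' design text, which also names edgeR. The count values are raw reads per gene as deposited. The RPKM values are as the authors deposited them, and recomputing them showed scaling to coding length and to uniquely mapped reads. The log2 fold changes, p-values and false discovery rates named as the authors' are also as deposited.

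Log2 ratios were computed from the counts after TMM scaling (edgeR 4.0.16, R 4.3.3), adding a prior count of 2. Intervals of ratios are exact conditional (Clopper-Pearson) 95% intervals, and those of RPKM are exact Poisson ones. They cover counting error alone and treat each read as independent. Since sequenced reads can be copies of 1 molecule, the intervals can be too narrow even for that error. With 1 library per group the quasi-likelihood test of edgeR could not be fitted, and no test of the conditions is given. Measured genes are those reaching 50 reads in either library of a pair. The ratio and its interval were run on simulated Poisson counts. These hold no spread between animals or cultures and no copied reads, so the run cannot show how the intervals behave under either.

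Named genes are the members, other thalamus, habenula and family genes, up to 3 genes of each further list, the nearest gene to each member, and any marked as chosen later. The members and lists were chosen with earlier results of these data known. Alternatives were other scalings (DESeq2 1.42.0 size factors, total counts, mapped reads), a prior count of 0.25 or 10, a minimum of 10 or 200 reads, a 2-fold rule, each member left out, and a correction by 10 groups of coding length and 5 of GC content (GENCODE M21, 21096 of 22328 identifiers). Python 3.11.15 and scipy 1.17.1 were used.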

Additional observations from a re-analysis of the deposited data

Results flagged for a closer look

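Lef1 and Prkcd differed in opposite directions in the pairs of libraries. Lef1 had a log2 ratio of -0.32 in hippocampus (F1m-GCS over F1m-CON) and 0.35 in HT22 cells (SUP over CON). Prkcd had 0.21 in hippocampus and -0.42 in HT22 cells. The interval of Lef1 spanned 0 in hippocampus after the length and GC correction, at -0.25, and in HT22 cells with scaling by mapped reads, at 0.13. Each direction rests on 1 library per group, the choline treatments of mice and cells are not the same, and the difference between the pairs was not tested.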

How the results depend on the processing

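No paired analysis was possible because each group has 1 library. In hippocampus the median of the markers stayed between 0.18 and 0.22 under all alternatives run, including each marker left out. The number with an interval below 0 was 1, and was 0 with a minimum of 200 reads, where Lef1 was not measured, and 0 with the coding length and GC correction. In HT22 cells the number at least 1.5-fold higher was 0, and 1 with a minimum of 10 reads, which admitted Rora. With the authors' RPKM scaling the number at least 1.5-fold lower was 1, against 0, and the number with an interval above 0 was 0, against 2. Counting error limits Tcf7l2 and Lef1 in hippocampus most, with under 200 reads each, and the spread between animals or cultures is unknown.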
